A study of Mus musculus with 11 samples.

Results

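The 38 genes described here make up the cell's NRF2 and glutathione defence, among 43346 genes in a deposited table of gene expression in mouse cholangiocytes, which form the lining of bile ducts. They were chosen by gene symbol, as known NRF2 target genes and known enzymes of glutathione, thioredoxin, peroxide and NADPH metabolism. The list was drawn up with earlier results of these data known. All 38 were found, and all 38 were among the 15264 genes that passed a filter on low values, which asked for FPKM 1 or more in 3 or more libraries. Gsta1 and Gsta2 passed it only through their values in the DDC libraries, so their changes are descriptions, and counts are also given without them. Male wildtype C57BL/6 mice of 14 to 16 weeks were used, and no group carried a transgene or deletion. Mice of the 4 Control libraries ate chow. Those of the 4 DDC libraries ate the DDC diet, which injures the bile ducts and blocks heme synthesis, for 10 days. Those of the 3 R15 libraries had the same 10 days of diet and then 15 days of chow. Liver cells bearing EpCAM, an epithelial surface protein also called CD326, were caught on magnetic beads, passed over a second column, and sequenced as stranded mRNA libraries. The labels call the libraries replicates without saying outright that each is 1 mouse, so p-values measure the spread between these libraries.

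NRF2, the protein of Nfe2l2, is a transcription factor that KEAP1 holds in the cytoplasm and marks for breakdown until oxidants or electrophiles modify KEAP1. NRF2 then pairs with small MAF proteins on antioxidant response elements and switches on genes that make glutathione, reduce thioredoxin and peroxides, conjugate toxic compounds and regenerate NADPH, the reducing power behind all of these. Cholangiocytes meet bile acids, conjugated toxins and glutathione exported in bile, and much of what is known of this system in the liver comes from hepatocytes, which hold large amounts of several of the enzymes named here.

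The DNA element is shown first because NRF2 acts through it and some of these genes carry it near their start. Its core, TGACNNNGC (N is any base), was searched on both strands of RefSeq promoters of build GRCm38.p6, from 250 bases before to 50 after each transcription start. Of the 38 genes 34 had a promoter entry, and Prdx6, Gsr, Gclc and Gsta4 had none. The core was found in 12 of the 34, or 35.3%, against 3781 of 27025 genes with an entry, or 14%. The list includes genes chosen as known NRF2 targets, so these shares are a description and no test. It was found in 9 of the 17 genes with an entry that were higher in DDC than in Control, in 1 of the 8 that were lower and in 2 of the 9 that passed in neither direction. Gsta2, among the 17, and Gsta1, among the 9, held no match and passed the filter only through DDC. A match is only a run of letters and no evidence of binding. The 6 windows below belong to the genes with a match before the start and the largest change between DDC and Control, 5 of them higher and Mgst1 lower. They are written along the gene's strand from 5′ to 3′, with the core in capitals. It reads GCNNNGTCA where it lies on the other strand. The windows of Mgst1, G6pdx and Gstm5 overlap annotated exons of GENCODE M21 transcripts and are kept to 29 bases, while those of Txnrd1, Prdx1 and Gclm overlap none.
Txnrd1, chr10:82859088-82859148, plus strand: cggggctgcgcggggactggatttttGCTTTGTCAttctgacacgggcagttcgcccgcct
Prdx1, chr4:116685440-116685500, plus strand: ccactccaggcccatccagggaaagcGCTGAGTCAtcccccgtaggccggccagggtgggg
Gclm, chr3:122245397-122245457, plus strand: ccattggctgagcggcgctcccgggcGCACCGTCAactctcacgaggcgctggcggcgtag
G6pdx, chrX:74428919-74428947, minus strand: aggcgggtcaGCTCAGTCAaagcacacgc
Gstm5, chr3:107895802-107895830, plus strand: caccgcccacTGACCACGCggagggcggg
Mgst1, chr6:138140461-138140489, plus strand: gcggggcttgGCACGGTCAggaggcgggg
The first letter of the core lies 92 bases before the start in Txnrd1, 133 in Prdx1, 134 in Gclm, 57 in G6pdx, 42 in Gstm5 and 56 in Mgst1. Nfe2l2 itself holds a match 240 bases before its start. Matches in Pgd, Srxn1 and Me1 lie at or after the start and are not printed.

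Values are FPKM, fragments scaled by gene length and library size, so that levels can be compared between genes. Tests used limma on log2(FPKM + 1) over all 15264 genes, with p-values adjusted by Benjamini-Hochberg and a threshold of 0.05, 2-sided. All changes below are differences on this scale with their standard error (SE), and they understate the change of genes at low FPKM. Between 49339240 and 72929107 reads stood behind each library, and 35 of the 38 genes had at least 100 reads in every library. The lowest counts were 3 reads for Gsta1, 10 for Gsta2 and 54 for Gstm3. The cells carried cholangiocyte markers in every library: the 10 markers summed to between 8088 and 11049 FPKM in Control, 9855 and 10979 in DDC and 8734 and 9778 in R15, and none was at 0 throughout a group. Other cells left traces. Control 3 held gastric mucous transcripts at a sum of 11252 FPKM over 7 markers, where the other 10 libraries held between 67.3 and 161. Pancreatic acinar markers, 9 in all, summed to 6579, 1744 and 776 in the first 3 Control libraries, 801 in DDC 1 and 1062 in R15 3, and to between 6.08 and 11.5 in the others.

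After 10 days of the diet 19 of the 38 genes were higher than in Control, 8 were lower and 11 passed in neither direction. Over all genes tested 33.5% were higher, 31.9% lower and 65.4% changed, so the count of 27 changed genes among the 38 lies near that share, with more rises than falls. The median change of the 38 was 0.34 on the log2 scale, against 0.0029 over all genes tested. Without Gsta1 and Gsta2, 18 of 36 genes were higher and 8 lower, with a median of 0.33. The rises were gathered in glutathione synthesis (3 of 4), thioredoxin and peroxiredoxin (5 of 5), glutathione peroxidases (3 of 4) and NADPH supply (5 of 5). The falls lay in the transferases (4 of 11 beside 2 rises, or 4 of 9 beside 1 rise without Gsta1 and Gsta2), in quinone, carbonyl and epoxide handling with Osgin1 (2 of 4) and in superoxide and catalase (2 of 3).

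**Figure D1:**
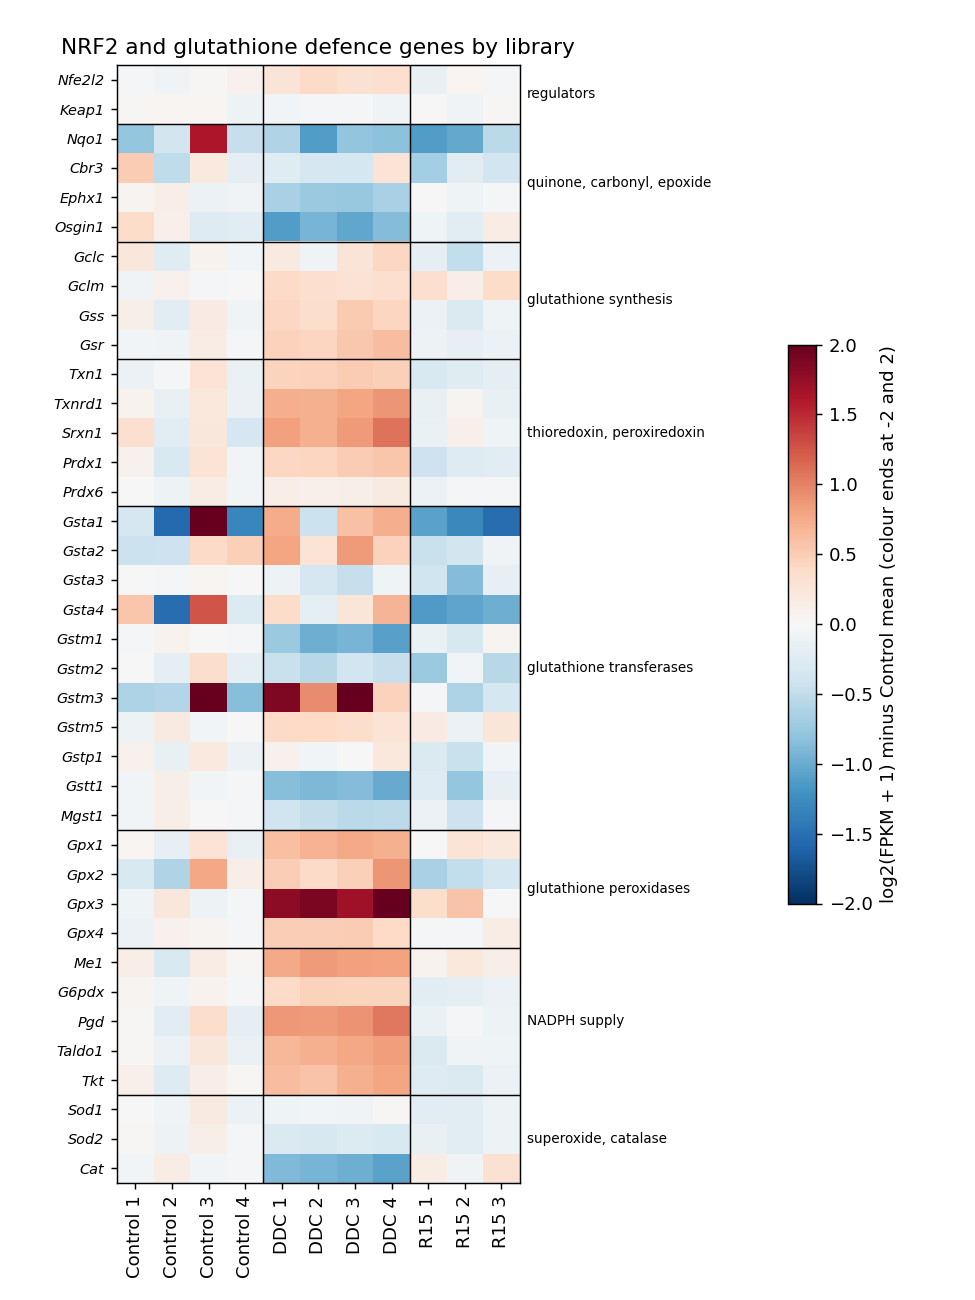
Each row is 1 of the 38 genes and each column 1 of the 11 libraries, with colour giving log2(FPKM + 1) minus the Control mean, red above and blue below, on a scale that ends at -2 and 2. The DDC columns are red through thioredoxin, peroxidase and NADPH genes and blue for Osgin1, Gstm1, Gstt1 and Cat, while Control 3 stands out in Nqo1, Gsta1, Gsta4 and Gstm3.

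Nfe2l2, on chr2:75675513-75704641 of mm10, was present at a steady level and rose modestly. Nfe2l2 stood at 63.3, 62.4, 66.4 and 69.2 FPKM in Control 1 to 4, 78.1, 85.4, 80.6 and 83.1 in DDC 1 to 4, and 58.7, 67.3 and 64.2 in R15 1 to 3. Every DDC value lay above every Control value, and the R15 values overlapped with Control. The change was 0.32 ± 0.05 (SE; adjusted p = 0.000341, limma) in DDC and -0.36 ± 0.06 in R15 against DDC (adjusted p = 0.000321). Keap1, on chr9:21229730-21239332, did not pass. Keap1 measured 17.2, 17.5, 17.5 and 15.8 FPKM in Control 1 to 4, 16.4, 16.6, 16.6 and 16.2 in DDC 1 to 4, and 17.1, 16.1 and 17.4 in R15 1 to 3. The 3 groups overlapped, with a difference between DDC and Control of -0.04 ± 0.04 and a 95% interval from -0.13 to 0.04. When each library was rescaled to one total, Keap1 was called lower in DDC (-0.13, adjusted p = 0.0433). An antisense transcript, Gm16754, overlaps 510 exon bases of Keap1, and the strand setting of the authors' counting was not stated in the sources used here.

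Glutathione is built by glutamate-cysteine ligase, a catalytic subunit (Gclc) with a modifier (Gclm), and then by glutathione synthetase (Gss), while glutathione reductase (Gsr) returns its oxidised form to use. The modifier rose and the catalytic subunit did not pass. Gclm came to 18.5, 20.9, 19.2 and 19.7 FPKM in Control 1 to 4, 25.7, 24.9, 24.1 and 25.0 in DDC 1 to 4, and 24.9, 21.4 and 25.5 in R15 1 to 3. All DDC libraries stood above all Control libraries, and so did R15. The change in Gclm was 0.33 ± 0.06 in DDC (adjusted p = 0.000433) and 0.28 ± 0.06 in R15, each against Control (adjusted p = 0.0225), while R15 differed from DDC by -0.06 ± 0.06 (adjusted p = 0.43). Gclc lay at 46.5, 33.5, 41.7 and 38.3 FPKM in Control 1 to 4, 45.3, 37.8, 47.8 and 53.2 in DDC 1 to 4, and 34.9, 28.1 and 36.5 in R15 1 to 3. DDC and Control overlapped, with a difference of 0.20 ± 0.13 (adjusted p = 0.192), and all 3 R15 values lay under the DDC values. Gclc was -0.46 ± 0.14 in R15 against DDC (adjusted p = 0.0144), a call that was lost without R15 2, at -0.35 and adjusted p = 0.0605. Gsr went from 28.8 ± 2.15 FPKM in Control (SD, n = 4) to 41.6 ± 2.55 in DDC (n = 4) and 26.1 ± 0.567 in R15 (n = 3), with changes of 0.52 ± 0.06 and then -0.65 ± 0.06. For Gss the changes were 0.43 ± 0.08 and -0.59 ± 0.09 and its 3 groups stood at 11.2 ± 1.40, 15.4 ± 0.770 and 9.88 ± 0.804 FPKM (SD). Gss shares exon bases with Acss2 on the other strand, 395 in all, and Gclm with Gm17494 and Gm6061, so part of their reads could belong to these neighbours.

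Thioredoxin and peroxiredoxin genes rose as a whole group, 5 of 5, and all 5 were lower in R15 than in DDC. Txnrd1, which encodes cytosolic thioredoxin reductase, showed no overlap between DDC and either other group. Txnrd1 stood at 34.6, 29.4, 38.1 and 29.9 FPKM in Control 1 to 4, 54.9, 54.6, 57.4 and 61.1 in DDC 1 to 4, and 29.4, 34.1 and 29.6 in R15 1 to 3. The lowest DDC value, 54.6, was above the highest value of Control and R15, 38.1. Its change was 0.78 ± 0.08 in DDC (adjusted p = 2.41e-05) and -0.86 ± 0.09 in R15 against DDC. Srxn1, sulfiredoxin, which repairs overoxidised peroxiredoxins, was far less abundant. Srxn1 measured 7.90, 5.15, 7.39 and 4.64 FPKM in Control 1 to 4, 11.6, 10.7, 11.8 and 14.2 in DDC 1 to 4, and 5.50, 6.64 and 5.74 in R15 1 to 3. DDC libraries were again the 4 highest, and Control libraries spread more widely than R15. Srxn1 changed by 0.87 ± 0.15 (adjusted p = 0.000483) and then -0.91 ± 0.16. Thioredoxin itself, Txn1, averaged 127 ± 17.7, 175 ± 3.91 and 107 ± 4.49 FPKM in the 3 groups (SD). The peroxide-reducing Prdx1 averaged 155 ± 26.1, 214 ± 9.84 and 125 ± 8.86. Both were called higher in DDC, by 0.47 ± 0.08 and 0.48 ± 0.11. Prdx6 moved least, by 0.14 ± 0.05 (adjusted p = 0.042), its Control and DDC ranges overlapped, and the call was lost in 9 of the 11 fits that each left out 1 library (adjusted p from 0.0503 to 0.11), all but those without Control 3 or R15 1. It was also lost under rescaling to one total (0.05, adjusted p = 0.293) and under median-of-ratios scaling (0.12, adjusted p = 0.0747), where 4 of the 5 genes stayed higher. Its change was 0.21 without Control 1 and Control 3.

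**Figure D2:**
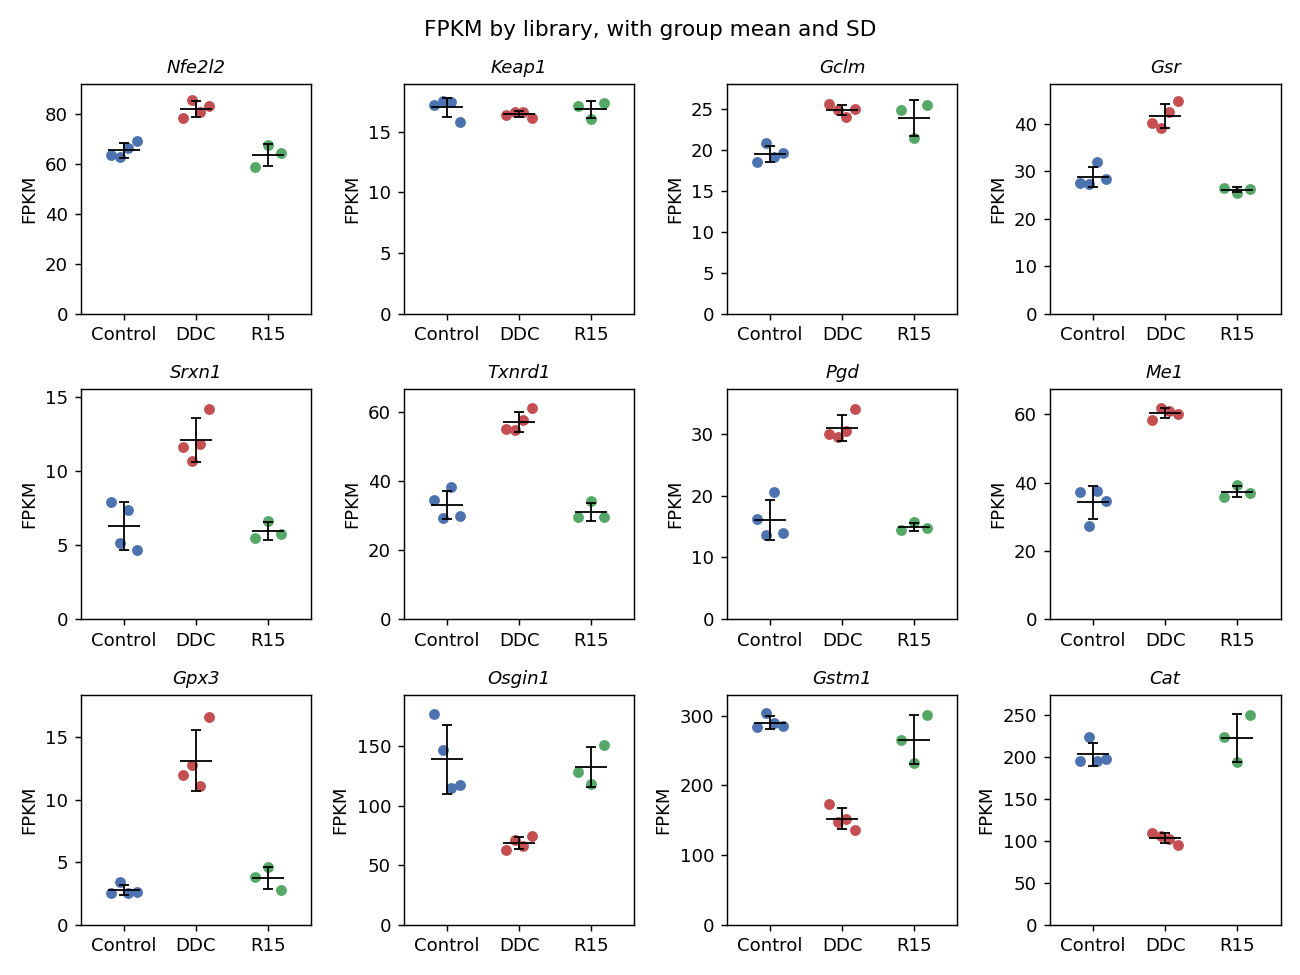
Points are FPKM of single libraries for 12 of the genes, by group (Control n = 4, DDC n = 4, R15 n = 3), with the group mean and SD as bars, on axes that start at 0. DDC points lie apart from Control points in 11 of the 12 panels, Keap1 being the one that overlaps, and R15 points lie near Control except in Gclm.

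Glutathione peroxidases reduce peroxides at the cost of glutathione. Gpx3, a secreted form, had the largest rise of the 38 genes in DDC. Gpx3 came to 2.54, 3.38, 2.50 and 2.63 FPKM in Control 1 to 4, 12.0, 12.8, 11.1 and 16.7 in DDC 1 to 4, and 3.80, 4.59 and 2.78 in R15 1 to 3. The lowest DDC library, at 11.1, was above the highest of the other groups, at 4.59. This was a change of 1.90 ± 0.14 (adjusted p = 2.41e-06) or 4.75-fold in mean FPKM, and R15 differed from DDC by -1.58 ± 0.16. Gpx1, the abundant cytosolic form, went from 143 ± 21.0 to 231 ± 10.0 and 160.3 ± 14.7 FPKM (SD), a rise of 0.69 ± 0.10. Gpx4, which protects membrane lipids, went from 88.3 ± 5.38 to 123 ± 4.02 and 90.8 ± 6.52, a rise of 0.47 ± 0.06. Of the 50-base words of the Gpx4 transcripts 34.7% occur in other genes, so its level is uncertain where the counting split reads. Gpx2, typical of gut epithelium, behaved differently from library to library. Gpx2 lay at 26.0, 21.1, 56.4 and 35.6 FPKM in Control 1 to 4, 46.2, 42.7, 45.6 and 60.4 in DDC 1 to 4, and 20.3, 22.7 and 25.1 in R15 1 to 3. Control 3 lay within the DDC range and the other Control libraries below it. The change was 0.56 ± 0.25 (adjusted p = 0.0747) with all libraries and 0.82 (adjusted p = 0.00253) without Control 3, and R15 was -1.06 ± 0.27 against DDC (adjusted p = 0.00667).

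The NADPH genes rose together, 5 of 5, and all 5 were lower in R15 than in DDC. Glucose-6-phosphate dehydrogenase (G6pdx) and phosphogluconate dehydrogenase (Pgd) make NADPH in the pentose phosphate pathway, Taldo1 and Tkt recycle its sugars, and malic enzyme (Me1) makes NADPH from malate. Pgd stood at 16.2, 13.6, 20.6 and 13.9 FPKM in Control 1 to 4, 29.9, 29.6, 30.4 and 34.1 in DDC 1 to 4, and 14.4, 15.7 and 14.8 in R15 1 to 3. The DDC libraries were the 4 highest, and Control 3 was highest of the rest. Pgd changed by 0.92 ± 0.11 in DDC (adjusted p = 4.74e-05) and -1.0 ± 0.12 in R15 against DDC. Me1 measured 37.3, 27.3, 37.6 and 34.6 FPKM in Control 1 to 4, 58.3, 61.9, 60.9 and 60.1 in DDC 1 to 4, and 35.8, 39.3 and 37.1 in R15 1 to 3. DDC libraries stood well clear of both other groups, and Control 2 was lowest. For Me1 the changes were 0.81 ± 0.09 (adjusted p = 2.29e-05) and -0.68 ± 0.09, and 22.9% of its 50-base words occur in other genes. Taldo1 came to 76.8, 70.0, 88.6 and 68.7 FPKM in Control 1 to 4, 120.2, 125, 131 and 136 in DDC 1 to 4, and 61.7, 71.8 and 71.0 in R15 1 to 3. The same separation was seen, with R15 1 lowest. Taldo1 changed by 0.75 ± 0.08 (adjusted p = 2.99e-05) and -0.90 ± 0.09. G6pdx lay at 29.1, 26.2, 29.4 and 27.3 FPKM in Control 1 to 4, 36.9, 38.8, 38.6 and 38.4 in DDC 1 to 4, and 23.9, 24.6 and 25.7 in R15 1 to 3. Here the R15 libraries lay below all Control libraries. G6pdx changed by 0.44 ± 0.04 in DDC (adjusted p = 1.14e-05), -0.61 ± 0.05 in R15 against DDC and -0.17 ± 0.05 in R15 against Control (adjusted p = 0.0457). Tkt changed by 0.68 ± 0.09 and -0.89 ± 0.10. Summed over the 5 genes, FPKM was 209.6 ± 23.2 in Control, 346 ± 15.3 in DDC and 192 ± 9.64 in R15 (SD). G6pdx shares 418 exon bases with Ikbkg on the other strand.

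**Figure D3:**
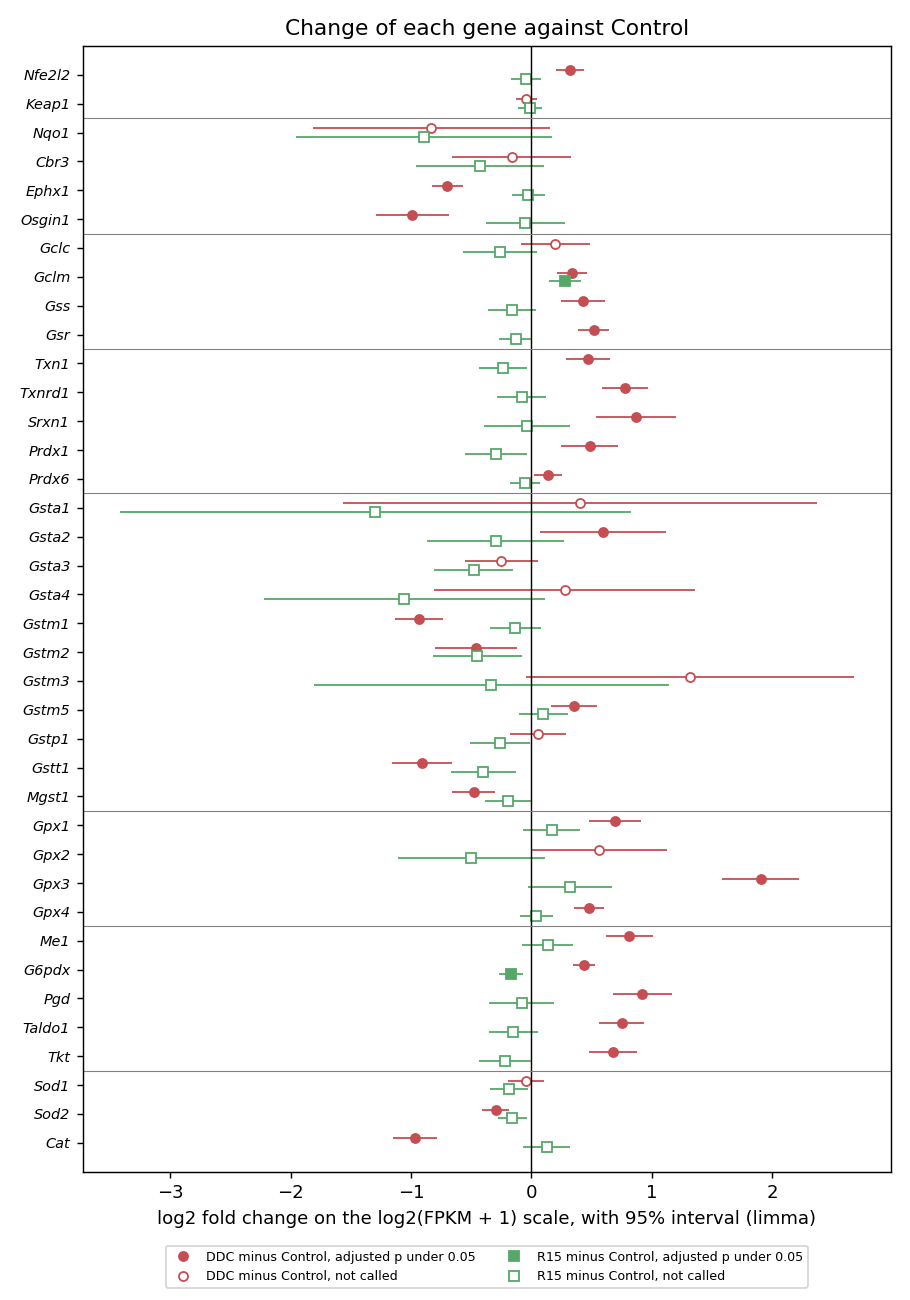
Points are log2 changes of DDC (circles) and R15 (squares) against Control for the 38 genes, with 95% intervals, filled where the adjusted p of limma is under 0.05. Circles lie to the right of 0 for thioredoxin, NADPH and most peroxidase genes and to the left for Osgin1, Ephx1, Gstm1, Gstt1 and Cat, and the only filled squares are Gclm and G6pdx.

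Glutathione transferases, which attach glutathione to reactive compounds, did not move as 1 group. In DDC 2 of the 11 were higher, 4 lower and 5 passed in neither direction, and Gstm1, Mgst1 and Gstt1, 3 of the 4 most abundant in Control, were among those that fell. Gstm1 was the most abundant of the 38 genes in Control. Gstm1 stood at 284, 303, 289 and 285 FPKM in Control 1 to 4, 173, 148, 151 and 136 in DDC 1 to 4, and 265, 232 and 301 in R15 1 to 3. All DDC values were below all others. Gstm1 changed by -0.93 ± 0.09 in DDC (adjusted p = 1.01e-05) and 0.80 ± 0.10 in R15 against DDC. Gstt1 measured 132, 149, 132 and 134 FPKM in Control 1 to 4, 75.1, 72.5, 74.4 and 67.8 in DDC 1 to 4, and 114, 79.8 and 121 in R15 1 to 3. DDC libraries were the 4 lowest, and R15 2 stood nearest to them. Gstt1 changed by -0.91 ± 0.11 (adjusted p = 5.83e-05) and 0.51 ± 0.12, and R15 lay below all Control libraries at -0.40 ± 0.12, which did not pass (adjusted p = 0.0672). Mgst1 came to 203, 229.7, 209.8 and 206 FPKM in Control 1 to 4, 161, 152, 146 and 148 in DDC 1 to 4, and 195, 158 and 206 in R15 1 to 3. The R15 range reached down to the DDC values through R15 2. The membrane-bound Mgst1 changed by -0.48 ± 0.08 (adjusted p = 0.000416) and 0.29 ± 0.09, and the second call was lost without R15 1 or R15 3 (adjusted p = 0.0583 and 0.0684). Gstm2 changed by -0.46 ± 0.15 in DDC (adjusted p = 0.0223), lost without Control 3 (adjusted p = 0.0552) or without DDC 2 (adjusted p = 0.0557).

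Of the transferases, Gstm5 was higher in DDC. Gstm5 went from 45.4 ± 4.09 to 58.1 ± 2.32 and 48.9 ± 6.48 FPKM (SD), a change of 0.35 ± 0.08 in DDC (adjusted p = 0.00394), and it shares 178 exon bases with the antisense gene 4933431E20Rik. Gsta2 lay between 0.122 and 1.77 FPKM in all libraries. It passed the filter on low values only through the DDC libraries, so its call as higher is a description and supports nothing. The change was 0.59 ± 0.24 (adjusted p = 0.0463), a call lost in 8 of 11 fits without 1 library (adjusted p from 0.0535 to 0.123), all but those without Control 3, Control 4 or DDC 2. Gstp1, a transferase abundant in duct epithelium, had a high level, with 33.7% of its 50-base words shared with other genes. It averaged 202 ± 23.1, 209 ± 17.0 and 169 ± 23.5 FPKM, with a difference of 0.06 ± 0.10 between DDC and Control and a 95% interval from -0.18 to 0.29. Gsta3 averaged 63.4 ± 1.18, 53.5 ± 6.84 and 46.1 ± 11.2 FPKM and passed in no comparison with all libraries in 1 model. All its DDC values lay below all Control values. It was called lower in DDC with only the 2 groups compared (adjusted p = 0.0292) or without R15 2 (adjusted p = 0.0299). Without R15 3 it was called lower in R15 than in DDC (adjusted p = 0.0401). The summed level of the 11 genes was 1074 ± 91.9, 812 ± 45.2 and 876 ± 117 FPKM in Control, DDC and R15 (SD). Within that sum Gstm1 held 27.2% in Control, 18.7% in DDC and 30.4% in R15, and Gstp1 held 18.8%, 25.8% and 19.3%.

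**Figure D4:**
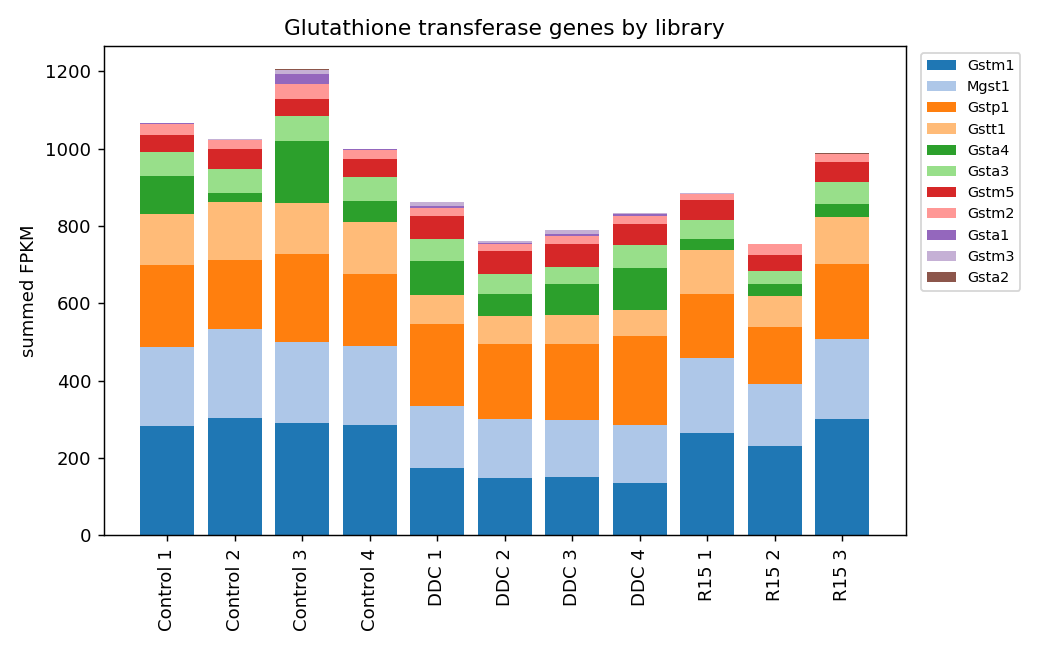
Each bar is 1 library and stacks the FPKM of the 11 glutathione transferase genes, on an axis from 0. The Gstm1 segment at the base is shortest in the 4 DDC libraries, and the Gsta4 segment is largest in Control 3.

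For a set of transferases and for Nqo1 the Control libraries did not form 1 level. Nqo1 makes the quinone reductase that is the textbook NRF2 target. Nqo1 lay at 2.23, 3.28, 15.8 and 2.99 FPKM in Control 1 to 4, 2.64, 1.54, 2.19 and 2.14 in DDC 1 to 4, and 1.55, 1.72 and 2.81 in R15 1 to 3. Control 3 stood apart, the next highest library being Control 2 at 3.28, and the other Control libraries overlapped with DDC and R15. DDC differed from Control by -0.83 ± 0.44 (adjusted p = 0.122) with Control 3 and by -0.30 (adjusted p = 0.157) without it. Gsta1 stood at 1.44, 0.0543, 27.4 and 0.249 FPKM in Control 1 to 4, 4.18, 1.29, 3.62 and 4.12 in DDC 1 to 4, and 0.467, 0.262 and 0.0809 in R15 1 to 3. Apart from Control 3, the DDC libraries held the most, with Control 1 just above DDC 2. The difference was 0.40 ± 0.88 (adjusted p = 0.705) with all libraries, 1.47 without Control 3, -0.11 without Control 2 and -0.03 without Control 4, so its sign turned with the Control library left out. R15 against DDC stood at -1.70 ± 0.95 (adjusted p = 0.145), with all R15 values below all DDC values. Gsta1 was called lower there in 3 of 22 alternatives. These included only the 2 groups compared (adjusted p = 0.00226) and the fit without Control 3 (adjusted p = 0.00245). Since Gsta1 passed the filter only through its DDC values, these differences are descriptions. Gstm3 measured 0.888, 0.937, 11.02 and 0.613 FPKM in Control 1 to 4, 9.54, 4.59, 10.5 and 2.98 in DDC 1 to 4, and 1.85, 0.895 and 1.26 in R15 1 to 3. Control 3 was above even the highest DDC library, and the other Control libraries were below the lowest. Gstm3 differed by 1.31 ± 0.61 (adjusted p = 0.0826) with Control 3 and by 2.00 (adjusted p = 0.000814) without it. With all libraries it passed by limma voom on recovered reads (1.96, adjusted p = 0.0449) and with the replicate block (adjusted p = 0.0393). In R15 against DDC it was -1.65 ± 0.66 (adjusted p = 0.0509), just above the threshold, and it passed in 10 of 23 alternatives. With all libraries kept these included voom (adjusted p = 0.0479), quantile normalization (adjusted p = 0.0462) and only the 2 groups compared, which used no Control library (adjusted p = 0.00819). It also passed without Control 3 (adjusted p = 0.00273) or DDC 4 (adjusted p = 0.0383). The product of Gsta4 handles aldehydes from lipid peroxidation. Gsta4 came to 97.8, 22.3, 160.0 and 54.4 FPKM in Control 1 to 4, 86.3, 58.2, 78.4 and 107 in DDC 1 to 4, and 29.7, 31.3 and 33.3 in R15 1 to 3. Control libraries ran from the lowest to the highest of all, while R15 was narrow. Gsta4 differed between DDC and Control by 0.28 ± 0.49 (adjusted p = 0.635) and by 1.18 (adjusted p = 0.0143) without Control 1 and Control 3. Over the 11 fits without 1 library it ran from -0.23 without Control 2 to 0.70 without Control 3 and passed in none. It was -1.33 ± 0.52 in R15 against DDC (adjusted p = 0.0477), a call lost in 9 of 11 fits without 1 library (adjusted p from 0.0501 to 0.108), all but those without Control 2 or Control 3. Control 3 is also the library with gastric mucous transcripts, and their part in these values was not tested. Of the 50-base words in its transcripts, Gsta1 shares 90.5% with other genes, Gsta2 49.8%, Gstm3 28.8% and Gstm1 18.9%, so reads of such family members may have been assigned to one another. Gsta1, Gsta2 and Gsta4 lie on chromosome 9, Gsta3 on chromosome 1, and the 4 Gstm genes on chromosome 3.

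**Figure D5:**
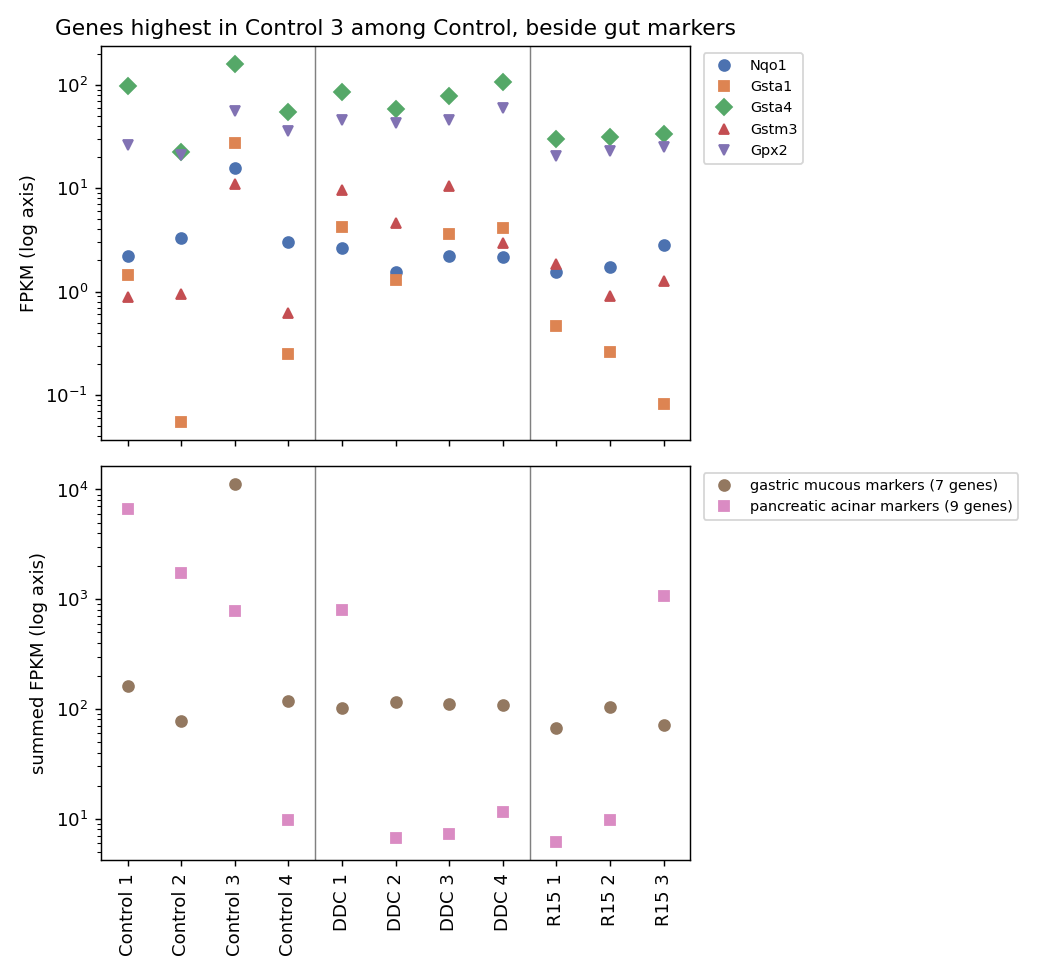
The upper plot gives FPKM of 5 genes in each of the 11 libraries and the lower plot the summed FPKM of 7 gastric mucous and 9 pancreatic acinar markers, both on log axes. Control 3 is the highest Control library for all 5 genes and the only library whose gastric sum, 11252 FPKM, is above 161.

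Osgin1 and Ephx1, both listed among NRF2 targets, fell. Osgin1 encodes an oxidative stress-induced growth inhibitor and Ephx1 microsomal epoxide hydrolase. Osgin1 lay at 177, 147, 115 and 117 FPKM in Control 1 to 4, 62.4, 71.1, 66.2 and 74.3 in DDC 1 to 4, and 128, 119 and 151 in R15 1 to 3. The highest DDC value, 74.3, was below every Control and R15 value. Osgin1 changed by -0.99 ± 0.14 in DDC (adjusted p = 0.000115) and 0.94 ± 0.15 in R15 against DDC. Ephx1 stood at 140.4, 148, 125 and 129 FPKM in Control 1 to 4, 86.1, 80.7, 79.7 and 85.9 in DDC 1 to 4, and 137, 128 and 134 in R15 1 to 3. DDC libraries formed a tight low group and R15 lay within the Control range. Ephx1 changed by -0.70 ± 0.06 (adjusted p = 3.68e-06) and 0.67 ± 0.06. The carbonyl reductase gene Cbr3 lay between 18.2 and 43.0 FPKM in all libraries and passed in no comparison.

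Catalase, the peroxisomal enzyme that breaks down hydrogen peroxide, fell further in DDC than any other of the 38 genes but Osgin1. Cat measured 196, 224, 196 and 198 FPKM in Control 1 to 4, 109.6, 106, 102 and 95.6 in DDC 1 to 4, and 224, 194 and 250.4 in R15 1 to 3. Every DDC value lay below every value of the other groups. Cat changed by -0.97 ± 0.08 (adjusted p = 4.49e-06) and 1.09 ± 0.09, or 0.509-fold in mean FPKM in DDC. Mitochondrial superoxide dismutase, Sod2, fell by less, and 21% of its 50-base words occur in other genes. Sod2 came to 19.6, 17.8, 21.1 and 18.7 FPKM in Control 1 to 4, 15.5, 15.2, 15.7 and 15.5 in DDC 1 to 4, and 17.4, 16.3 and 17.8 in R15 1 to 3. No DDC value reached the lowest value of the other groups. Sod2 changed by -0.30 ± 0.05 in DDC (adjusted p = 0.000423) and 0.14 ± 0.05 in R15 against DDC (adjusted p = 0.0442), the second of which was lost in 8 of 11 fits without 1 library (adjusted p from 0.0529 to 0.146), all but those without Control 2, Control 3 or R15 2. The cytosolic Sod1 averaged 253 ± 23.4, 245 ± 8.55 and 222 ± 11.4 FPKM. It passed in no comparison with all 11 libraries in 1 model and the values as deposited. It was called lower in DDC under quantile normalization (-0.18, adjusted p = 0.0303). It was called lower in R15 than in DDC without Control 3 (adjusted p = 0.0417), under median-of-ratios scaling (adjusted p = 0.0466) and with only those 2 groups in the model (adjusted p = 0.0455).

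Markers of other cells moved with the diet, and in bulk RNA fewer cells of a type and less RNA per cell cannot be told apart. The 12 hepatocyte markers, of which 3 were higher and 4 lower in DDC, summed to between 2912 and 3609 FPKM in Control, 1048 and 1590 in DDC and 1783 and 2453 in R15. Without Alb and Ttr the other 10 summed to between 43.1 and 109.5 in Control, 53.9 and 127 in DDC and 106 and 129.6 in R15, ranges that overlap. Macrophage markers, 9 of 10 higher in DDC, summed to between 126 and 150.1 FPKM in Control, 1360 and 2440 in DDC and 142 and 732 in R15, where R15 2 was highest. Endothelial markers, 8 of 8 lower in DDC, summed to between 75.6 and 342 in Control, 11.7 and 38.5 in DDC and 49.7 and 166 in R15. Stellate and fibroblast markers summed to between 29.7 and 59.6 in Control, 417 and 502 in DDC and 160.2 and 205 in R15. Of the 2 tested in that list 1 was higher and 1 lower in DDC. From Control to DDC the dendritic sums went from between 15.1 and 23.3 to between 63.6 and 81.8. The neutrophil sums went from between 0.709 and 3.31 to between 35.4 and 61.3. The mesothelial sums went from between 8.89 and 14.2 to between 45.4 and 77.3. B and plasma sums fell, from between 41.3 and 89.7 to between 11.6 and 23.0. No marker of the hepatocyte, macrophage and endothelial lists was at 0 throughout a group. The part of these cells in the rises and falls of the 38 genes was not tested.

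On return to chow for 15 days, 22 of the 38 genes were lower than in DDC and 7 were higher, where 28.8% of all genes tested were lower, 33.4% higher and 62.2% changed. The median change of the 38 was -0.45, against 0.04 over all genes. Without Gsta1 and Gsta2, 21 of 36 were lower and 7 higher, with a median of -0.40. The thioredoxin group (5 of 5), the glutathione peroxidases (4 of 4), NADPH supply (5 of 5), glutathione synthesis (3 of 4) and transferases (4 of 11, or 3 of 9 without Gsta1 and Gsta2) held the lower calls, apart from that of Nfe2l2. The 7 higher calls were Cat, Osgin1, Gstm1, Ephx1, Gstt1, Mgst1 and Sod2. These values use the same DDC libraries as the comparison with Control and are not independent of it. Among genes that passed with no overlap between groups, the largest falls were those of Gpx3 at -1.58 ± 0.16, Gsta4 at -1.33 ± 0.52, Gpx2 at -1.06 ± 0.27 and Pgd at -1.0 ± 0.12. Rescaling the libraries to one total moved the median change of all genes by 0.10, with 6172 genes higher and 3305 lower where the values as deposited gave 5099 and 4397, and left 8 of the 38 genes higher and 18 lower. Gstm5 was no longer lower without DDC 1, DDC 2, DDC 3 or R15 2 (adjusted p from 0.0616 to 0.127), Gstp1 without DDC 1, DDC 4, R15 1 or R15 2 (adjusted p from 0.064 to 0.126) and Prdx6 without R15 1 (adjusted p = 0.0579). The calls of Keap1 (higher, 0.14) and of Gstm5, Gstp1, Gsta4 and Prdx6 (no longer lower) differed under the one-total scaling.

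R15 was called different from Control in 2 of the 38 genes, Gclm higher and G6pdx lower, where 9.58% of all genes tested changed, 6.87% higher and 2.72% lower. Among all genes 1048 were higher and 415 lower, against 622 and 804 under median-of-ratios scaling and 594 and 468 under quantile normalization. The median change of the 38 was -0.16, against 0.05 over all genes. Neither call was kept under all alternatives: Gclm was lost without Control 1 (adjusted p = 0.0543), R15 1 (adjusted p = 0.0819) or R15 3 (adjusted p = 0.0678), and G6pdx in 10 of 11 fits without 1 library (adjusted p from 0.0558 to 0.146), the exception being the fit without Control 2. Gstt1, Gsta3, Sod2, Gsr and Txn1 had all 3 R15 values below all 4 Control values without passing, with adjusted p from 0.0672 for Gstt1 to 0.189 for Gsr. Without Control 2, Gsta4, Prdx1, Sod2 and Tkt were called lower too (adjusted p from 0.0199 to 0.0349). Gstm2 was called lower without R15 2 (adjusted p = 0.0365), and Gsta3 and Gstt1 without R15 3 (adjusted p = 0.0345 and 0.0421). A p above the threshold does not show that the levels were equal.

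Among Control libraries the 38 genes varied more than among DDC libraries, with a median coefficient of variation of 12.4% in Control, 5.26% in DDC and 9.17% in R15. Control 3 was the highest Control library for 22 of the 38 genes and Control 2 the lowest for 20. In 5 genes the coefficient was above 50% in Control, in 1 in DDC and in 2 in R15. FPKM summed over all genes was also highest among Control libraries in Control 3, at 356413. The coefficients and the order of libraries were not computed over all genes tested. Whether they are particular to the 38 genes is therefore not known.

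Other genes of the same pathways, 123 that are not among the 38, give the surroundings. Of these 121 were in the table and 111 were tested, and in DDC 38 (34.2%) were higher and 45 (40.5%) lower than in Control, where 33.5% of all genes tested were higher and 31.9% lower. Among the MAF and NRF2 partners (5 higher, 3 lower of 13), Maff at 0.84 and Bach1 at 0.41 were among those that rose, and Nfe2l1 at -0.28, Gsk3b at -0.25 and Btrc at -0.22 fell. Of the transport and turnover genes (5 higher, 10 lower of 17), the bile pump Abcc2 at 0.88, Abcc4 at 0.66 and the amino acid carrier Slc1a5 at 0.61 rose, while Cbs, an enzyme of the route from methionine to cysteine, fell by 2.30, Anpep by 1.23 and Oplah by 0.79. Abcc2 was also higher in R15 than in Control, by 1.96. The cystine carrier Slc7a11 lay below the filter, at no more than 0.634 FPKM in any library, and was not tested.

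Over all genes tested 33.5% were higher in DDC and 31.9% lower, to be read beside each count below. The other transferases (3 higher, 6 lower of 13, or 23.1% and 46.2%) rose in Hpgds at 2.17, Gstp3 at 0.97 and Gstcd at 0.36. They fell in Gstk1 at -1.87, Gstm7 at -1.50 and Gstz1 at -1.10. In the remaining peroxidase, thioredoxin and glutaredoxin genes (8 higher, 10 lower of 24, or 33.3% and 41.7%), Gpx8 at 0.85, Msrb1 at 0.83 and Sesn2 at 0.43 rose. Extracellular superoxide dismutase Sod3 fell by 1.57, the thioredoxin inhibitor Txnip by 1.48 and Msrb3 by 0.45. Detoxification genes (11 higher, 10 lower of 31, or 35.5% and 32.3%) lay near the shares of all genes. Among them Hmox1, heme oxygenase 1, rose by 3.57, the ferritin light chain Ftl1 by 1.32 and the aldose reductase Akr1b3 by 1.00. Hmox1 stood at 37.1 FPKM in R15 2 and at 5.17 and 5.41 in the other R15 libraries. R15 2 also held the highest R15 sum of macrophage markers (732 against 142 and 172). The same held for dendritic (60.7 against 23.7 and 31.1), endothelial (166 against 49.7 and 128) and B and plasma markers (173 against 38.4 and 59.2). Its hepatocyte sum was the lowest (1783 against 2167 and 2453). The part of these cells in Hmox1 was not tested. Sult1a1 fell by 1.68, Ugt2b35 by 1.16 and Akr1c19 by 1.12. Of the NADPH and folate genes (6 higher, 6 lower of 13, each 46.2%), Mthfd2 at 1.32, Pgls at 0.58 and Idh1 at 0.54 rose. Aldh1l1 fell by 1.40, Me3 by 0.62 and Idh2 by 0.36.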

How the data were processed

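A single table from the authors holds FPKM for each gene in each library, beside symbols, lengths and coordinates. The build is mm10 per the submitters' processing notes, and the aligner, counting tool, its strand setting and the gene models were not stated in the sources used here. Whole reads could be recovered from 100% of nonzero values within a tolerance of 0.001, which gave the depth of 49339240 to 72929107 reads per library. The 11 libraries entered 1 limma 3.58.1 model (R 4.3.3) of log2(FPKM + 1) with the 3 groups and trended empirical Bayes variances, over the 15264 genes at FPKM 1 or more in 3 or more libraries, for 3 comparisons. The scripts were tested on simulated data. The 38 genes, the pathway lists and the marker lists were chosen with earlier results of these data known. Values by library are given for 7 genes fixed by name (Nfe2l2, Keap1, Nqo1, Gclc, Gclm, Srxn1 and Txnrd1) and, per comparison, for up to 6 of the largest rises and 6 of the largest falls that passed without overlap. Gsta1 and Gstm3 were added after their values were seen. From each pathway list up to 3 rises and 3 falls are named, 1 gene that the rule would name is not reported here, and Hmox1 and Slc7a11 values by library were chosen after they were seen. Alternatives, 23 in all, changed the pseudocount, filter, scaling, model or the libraries, among them a fit without Control 1 and Control 3 and limma voom on the recovered reads, the latter chosen after seeing the data. Promoter sequences are RefSeq's, build GRCm38.p6, and shared 50-base words were counted in GENCODE M21 transcripts.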

Additional observations from a re-analysis of the deposited data

Results flagged for a closer look

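In 9 of the genes 1 library stood further from the rest of its group of 4 than Dixon's 95% critical value for 4 samples allows, 7 in Control and 2 in DDC, out of 38 genes looked at in each group. Chance flags about 1 in 20 such groups where values are normally distributed, and the rule was applied to FPKM without a log. The share flagged over all genes tested was not computed, so an excess in the 38 genes cannot be claimed. The R15 group of 3 was not looked at. Control 3 was the high library in 3 genes: Nqo1 at 15.8 FPKM (the others at 2.23 to 3.28), Gsta1 at 27.4 FPKM (the others at 0.0543 to 1.44) and Gstm3 at 11.02 FPKM (the others at 0.613 to 0.937). Control 3 also held gastric mucous transcripts at a sum of 11252 FPKM, and their part in these values was not tested. Control 2 was the high library in Gstt1 at 149 FPKM, Gpx3 at 3.38 FPKM and Cat at 224 FPKM, where the other Control libraries lay at 132 to 134, 2.50 to 2.63 and 196 to 198. Keap1 was low in Control 4 at 15.8 FPKM, and G6pdx was low in DDC 1 at 36.9 FPKM. Cbr3 was high in DDC 4 at 36.3 FPKM, where the other DDC libraries lay at 23.2 to 25.1. The calls of Gstt1, Gpx3, Cat and G6pdx in DDC against Control were kept in each of the 23 alternatives.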

How the results depend on the processing

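Under the 23 alternatives the number of the 38 genes called higher in DDC than in Control ran from 17 to 22 and lower from 7 to 9, and 24 of the 27 calls were kept in all of them. Gsta2, Prdx6 and Gstm2 were not. In R15 against DDC the counts ran from 5 to 8 higher and 18 to 25 lower, and 22 of 29 calls were kept, all but Gclc, Gsta4, Gstm5, Gstp1, Mgst1, Prdx6 and Sod2. No called change reversed. R15 against Control, with 1 gene higher and 1 lower, kept neither call. The higher call was 0 under rescaling to one total, median-of-ratios scaling, only the 2 groups compared, the replicate block and without Control 1 and Control 3. The lower call was 3 under median-of-ratios scaling and 0 under no filter, rescaling to one total, the 2 groups, the replicate block and without Control 1 and Control 3. Leaving out 1 library gave 0 to 1 higher and 0 to 5 lower. Over all genes this comparison called 1463. It called 317 with only the 2 groups, 693 with the replicate block and 491 without Control 1 and Control 3. Fits without 1 library called 660 to 2184. The cause of these differences was not tested. The replicate block rests on replicate numbers that the labels do not say pair the libraries. Deviations of same-numbered libraries of different groups correlated at -0.282 to 0.3 over 10 pairs. Those of differently numbered libraries ran from -0.544 to 0.604, so correlations of so few libraries cannot decide whether the numbers pair them. In the column names the numbers run on from group to group. Libraries with the same replicate number therefore carry different numbers there. With the replicate block 9670 genes were called in DDC against Control and 9056 in R15 against DDC. The main model called 9981 and 9496. The planned quasi-likelihood count test was not run, and limma voom on the recovered reads took its place. Low depth limits Gsta1, Gsta2 and Gstm3, with as few as 3, 10 and 54 reads in a library.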
